A study of Sus scrofa with 12 samples.

Results

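Targets assigned to miR-4331-5p were examined in a degradome survey of loin muscle from 12 female pigs. Every row of the 12 deposited interaction tables that named this miRNA was taken, 2576 of 19855 rows. Rows of a library with the same sum of listed start and cleavage position were counted as 1 interaction, which gave 702 of the 1576 interactions of named miRNAs (44.5%). They fell at 509 positions. Degradome sequencing, also called PARE for parallel analysis of RNA ends, captures the 5′ ends of cleaved transcripts, and the PAREsnip program looks for small RNAs that could have directed each cut. The animals were Hampshire, Pietrain and Polish Large White pigs, 4 libraries a breed, recorded at day 180 and slaughtered at 100 ± 2 kg after identical feeding and housing at a test station. Within each breed 2 libraries were titled high MM and 2 low MM. The sample labels do not expand MM, and no treatment or allele is given. In the Pietrain animals the titles and the workbook's tab names give opposite MM groups, and the titles were followed.

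MicroRNAs are short RNAs that guide Argonaute proteins to partly complementary messages. In animals they mostly repress translation and shorten the message's tail, and they direct a cut only where pairing is nearly complete, so most animal microRNA targets leave no end at a fixed position. Degradome fragments that match many places in a genome cannot be placed on a single transcript, which matters for a genome rich in interspersed repeats such as that of the pig.

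The tables list retained interactions only, so a position missing from a library was unlisted and not measured at 0. Read depth is not given. The inverse of each table's normalization factor served as relative depth, added over both factors in the 5 libraries that had 2. Relative depth was 2.40 to 2.95 in 5 libraries and 15.2 to 36.9 in the other 7. All 6 low-MM libraries but only 1 of the 6 high-MM libraries, Pietrain high MM replicate 2, held rows of the deeper class, so depth and MM group cannot be told apart. The tissue label could be checked only by which genes were listed, since no expression level is given: of 17 fast-fibre contractile genes, 9 were listed for some small RNA. The miRNA itself carried a small RNA abundance of 2 in 8 libraries, of 2 and 3 in 3 Hampshire libraries and of 4 in Polish Large White high MM replicate 1. Its name stood in the same truncated 30-character cell in all rows, so a second name that may follow it could not be read.

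Hampshire low MM replicate 1 stood apart in its alignment scores, which add penalties for unpaired bases so that lower means closer pairing. At 12 of its 15 positions listed in 3 or more libraries it scored above the position's median, by a median of 1.5, and at the other 3 it equalled it. Other named miRNAs also scored high there, with a mean of 4.48 over their single-locus interactions. No other library exceeded the median at more than 1 position. In the 3 Hampshire libraries with abundances of 2 and 3 under the miRNA's name, positions listed with both values scored lower with the value 3 at 11 of 26, 18 of 27 and 21 of 42 positions and higher at none. The same name therefore covered entries that paired differently with the same position. Whether these are different sequences was not tested, because no small RNA sequence is given in the tables.

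The first question was which of the targets were placed at a single locus. The ratio of fragment abundance to weighted fragment abundance is the number of searched windows that a degradome fragment matched. Windows overlap, so a fragment from 1 place can match several of them, and a median of at most 70 over an interaction's rows was taken as about 1 locus. By that split 165 interactions at 125 positions were single-locus (23.5%), with a median of 9.00 windows. The other 537 interactions at 384 positions came from repeated sequence (76.5%). The medians per interaction left a gap at the split. The single-locus counts reached 69.4, in CCDC12, HBEGF and the pair CCDC86 and PTGDR2 in Pietrain low MM replicate 2, and the next values were 108, in ARHGAP23, SLC13A5 and USP20 in Hampshire high MM replicate 2. Among repeated interactions 273 lay between 108 and 324 windows, with a median of 250, and 264 lay between 896 and 1947, with a median of 1704. The value of 896, in RFXANK in Hampshire low MM replicate 1, was a median over fragments at 80.3 and 1711 windows, and 2 medians of 1004 in Polish Large White low MM replicate 1 likewise averaged 257 and 1752. These last ranges were set after the values had been seen.

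Repeated interactions were far fewer events than positions. Rows were split into a deeper and a shallower class by normalization factor, here called the factor class. The labels do not say whether these classes were separate sequencing runs. Positions of 1 library with the same factor class, fragment abundance and window count were taken to rest on the same degradome fragment. Counted by library and factor class, the 537 repeated interactions then came from 63 fragments, with a median of 10 and up to 39 positions a fragment. Of these interactions 531 (98.9%) shared their fragment with another position. Of the 165 single-locus interactions, 102 (61.8%) had the same values as another position, but there equal values did not always mark the same fragment. In Polish Large White low MM replicate 1, for example, MYPN, CCDC172 and NDST1 each had abundance 20 and exactly 1 window, at positions on chromosomes 14, 14 and 2, so fragments that each matched 1 place had equal values. Within a factor class, fragments counted in this way are therefore a minimum. A fragment found in both factor classes of a library counted in each, so the total over classes is not a minimum. In each of the 12 libraries the largest fragment was listed at 13 to 39 positions. In Polish Large White high MM replicate 2, for example, 1 fragment of abundance 60 that matched 1850 windows accounted for all 15 repeated interactions, among them those in TPM1, PPP1R2, ATP2A1, NEB and B2M.

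The positions recurring in the most libraries were of this repeated kind. Of the 509 positions, 411 were listed in 1 library, 98 in 2 or more, 9 in 6 or more and 2 in all 12. Those in all libraries lay in TPM1, a tropomyosin of the thin filament (ENSSSCG00000004570, chromosome 1, position 108993852), and in PPP1R2, an inhibitory subunit of protein phosphatase 1 (ENSSSCG00000039249, chromosome 13, position 132460444). Positions are sums of listed start and cleavage position, in a genome build that the sources used here do not name. Fragment abundance in the high-MM libraries was 60 and 100 in Hampshire, 140 and 780 in Pietrain and 80 and 60 in Polish Large White at PPP1R2, in order of replicate. In the low-MM libraries it was 340 and 340, 460 and 1220, and 2480 and 960. The groups overlapped at PPP1R2 only through Pietrain high MM replicate 2, the high-MM library that held deeper rows. TPM1 carried the same largest abundance as PPP1R2 in 11 of 12 libraries, although the genes lie on different chromosomes. The exception was Pietrain high MM replicate 2, with 120 at TPM1. The alignment score was 4 for TPM1 in all 12 libraries. PPP1R2 scored 3 in 11 libraries and 4.5 in Hampshire low MM replicate 1.

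TPM1 held the only repeated interaction with a fragment under the split. In Hampshire high MM replicate 2 a fragment of abundance 20 matched 5 windows at the same position, in category 0 and with a normalized abundance of 1.67. PAREsnip categories run from 0, a single maximum on the searched sequence, through 1, a tied maximum, 2, above the average, and 3, at or below it, to 4, a single read. The other TPM1 rows of that library matched 1275 windows at a normalized abundance of 0.0327, a scale the authors do not give. In 11 of 12 libraries TPM1 thus rested on repeated fragments alone. Another TPM1 position on chromosome 1, 115424104, was listed once, with 246 windows, in Polish Large White high MM replicate 1.

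Other recurring repeated positions showed the same sharing. FKBP5, a co-chaperone of steroid receptors (chromosome 7, position 31442309), was listed in 10 libraries with 232 to 1818 windows. It scored 2 in 9 libraries and 4.5 in Hampshire low MM replicate 1. DSP, the desmosomal linker desmoplakin (chromosome 7, position 4935282), was listed in 8 libraries at a score of 3, with category 0 in Hampshire low MM replicate 2 alone. ATP2A1, the calcium pump of fast fibres (chromosome 3, position 18564131), was listed in 7 libraries with 1401 to 1850 windows and a score of 2 in 6 of them. MYLK2, the skeletal myosin light chain kinase (chromosome 17, position 35511064), was also listed in 7, with 197 to 317 windows. The position shared by NOPCHAP1, a box C/D snoRNP assembly chaperone, and ALDH1L2, a mitochondrial folate enzyme (chromosome 5, position 79563057), was listed in 6, with 189 to 315 windows. NOPCHAP1 was named in all 6 and ALDH1L2 in only 1. FKBP5 drew on either repeated range, with medians of 1275 to 1818 windows in 5 libraries and 232 to 312 in the other 5.

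Among single-locus positions, PM20D2 and HBEGF recurred most, in 6 libraries each. PM20D2 encodes a peptidase-family protein (ENSSSCG00000004314, chromosome 1, position 57218020). Its window counts were 9 in Hampshire low MM replicate 1, 6 in Pietrain high MM replicate 2, 7 and 16 in the Pietrain low-MM libraries and 25.8 and 11 in the Polish Large White low-MM libraries. The alignment score was 3 in each, and the position was category 0 in the Hampshire library and category 2 in the other 5. PM20D2 was thus listed in 5 low-MM libraries and 1 high-MM library, all with deeper rows. Rows of 4 of these libraries named the gene, and in Hampshire low MM replicate 1 and Pietrain low MM replicate 2 the windows listed carried no gene. In 4 of the 6 libraries its fragment was listed nowhere else.

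HBEGF, the heparin-binding EGF-like growth factor (chromosome 2, position 142103715), had 24 windows in Hampshire high MM replicate 1 and 21 in Hampshire low MM replicate 1. It had 47 in Pietrain high MM replicate 2, 57.6 and 69.4 in the Pietrain low-MM libraries and 25.4 in Polish Large White low MM replicate 1. It was in category 0 in Hampshire high MM replicate 1 and Polish Large White low MM replicate 1, the only single-locus position with category 0 or 1 in 2 libraries. Its score was 2 in 5 libraries and 4.5 in Hampshire low MM replicate 1. CCDC12, a spliceosome-associated protein gene on chromosome 13 (position 29787601), was listed in 5 of the same 6 libraries with the same window count and abundance in each, from 20 to 200. By the rule above such equal values were taken as the same fragment. In every library that listed HBEGF, 2 to 4 positions held its values, itself included. Its placement as single-locus thus rests on the window count alone. Whether the fragments were the same sequence was not tested.

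The remaining single-locus positions that recurred were listed in 2 or 3 libraries each. CNST, consortin, which takes part in connexin trafficking, was listed in 3 libraries with 7 to 12.9 windows. ANK1, an ankyrin that links membrane proteins to the cytoskeleton, was listed in 3 with 21.9 to 26 windows. The pair HP, haptoglobin, and TXNL4B had 8 to 11 windows in 3 libraries, and a position in ZNF211, a zinc finger gene, had 9 to 32.8 windows in 3 low-MM libraries. A position on chromosome 6 (145207743), named as SERBP1, an mRNA-binding protein gene, in only 1 of its 3 libraries, had 11.5 to 26 windows. LAMA2, the laminin chain of the muscle basement membrane (ENSSSCG00000004207, chromosome 1, position 33772195), scored 2 in both Hampshire high-MM libraries. It had 6 windows and category 0 in replicate 1 and 3 windows and category 2 in replicate 2, each at abundance 20. In replicate 1 these values were held by 3 positions, LAMA2 included. Another LAMA2 entry (ENSSSCG00000033894, chromosome 1, position 34292266) was repeated, with 1275 windows in 1 Hampshire high-MM library. Positions without a gene on chromosome 16 (28250455) and chromosome 8 (38196077), were listed in 3 and 2 libraries with 8 to 14 windows, the latter at a score of 2 in both.

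ATP2A1 was the clearest case of a gene with both kinds of position. Besides the repeated position above, position 18558732 was listed in Pietrain low MM replicate 2 and both Polish Large White low-MM libraries, with 8, 23 and 10 windows. Its score was 4 and its category 2 in each, and its fragment was listed at no other position in any of the 3. All 3 were low-MM libraries with deeper rows, and none of the 6 high-MM libraries listed it. Presence by MM gave p = 0.167 by exact permutation within breeds, adjusted p = 1.

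A stricter reading kept single-locus interactions whose abundance and window count, within a factor class, occurred at no other position of the library. There were 63, at 56 positions, and 21 of them were in category 0 or 1. Recurrence was rare among them: 4 positions came up in 2 or more libraries, in PM20D2, ATP2A1, RPS25, a ribosomal protein gene, and the chromosome 16 position without a gene. The 11 interactions that matched exactly 1 window were each listed in 1 library. Of these, 6 were in category 0: ABCA6, a lipid transporter of the ABC family; AP2B1, a subunit of the clathrin adaptor; USP54, of the ubiquitin peptidase family; CCDC172; PTPN12, a tyrosine phosphatase; and a position without a gene on chromosome 6. Their fragment abundance was 20 in all but ABCA6, which had 60. DEGS1, a ceramide-forming desaturase, GMPS, of guanine nucleotide synthesis, MYPN, the Z-disc protein myopalladin, and NDST1, of heparan sulphate synthesis, also matched 1 window, in category 1 for NDST1 and category 2 for the rest.

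The lowest alignment score, 1, occurred in 2 genes. UNC45A, a chaperone of myosin folding (chromosome 7, position 53538708), had 4 windows, abundance 40 and category 2 in Pietrain low MM replicate 2, with a fragment listed nowhere else. JOSD1, a deubiquitinating enzyme gene (chromosome 5, position 9333417), had 6 windows and category 0 in Pietrain high MM replicate 2. In Hampshire low MM replicate 1 the same JOSD1 position came from a fragment with 226 windows at a score of 4.5. JOSD1 and BCAT2, the mitochondrial branched-chain aminotransferase, were the 2 positions that lay on different sides of the split in different libraries. BCAT2 had 4 windows in Pietrain low MM replicate 2, 206 in Hampshire low MM replicate 2 and 255 in Pietrain high MM replicate 2.

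Single-locus interactions were more often in category 0 or 1 than repeated ones. The share in category 0 or 1 was 47.9% ± 28.8 for single-locus interactions and 1.67% ± 2.15 for repeated ones (SD, n = 12 libraries). The difference of 46.3 percentage points had the same sign in 12 of 12 libraries (exact sign-flip permutation test over libraries, two-sided, p = 0.000488, the smallest it can give; adjusted p = 0.00244 over the 10 tests reported). The single-locus share ran from 18.8% in Pietrain low MM replicate 1 to 100% in both Polish Large White high-MM libraries, which held 3 and 2 such interactions. Whether the category was computed on weighted abundance is not given, and if so the category and the window count are not independent. In that case division by windows could itself set the category difference, which the p-value cannot tell apart. Median fragment abundance was 20 for single-locus and 160 for repeated interactions. Median normalized weighted abundance was 0.260 and 0.0349. Pairing did not differ detectably: the mean best alignment score was 3.55 ± 0.356 for single-locus and 3.46 ± 0.379 for repeated interactions (difference 0.0893 ± 0.290, SD; exact sign-flip permutation p = 0.303), higher in 7 of 12 libraries. Without Hampshire low MM replicate 1 this difference was 0.112 (exact sign-flip permutation p = 0.229).

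Compared with the other named miRNAs pooled, the share of single-locus interactions was low for miR-4331-5p. It was 22.2% ± 11.8 for miR-4331-5p and 78.1% ± 23.8 for the other named miRNAs together (SD, n = 12 libraries). The difference of -55.8 percentage points had the same sign in 12 of 12 libraries (exact sign-flip permutation p = 0.000488, adjusted p = 0.00244). In Hampshire high MM replicate 1 the shares were close, 32.3% and 33.3%. With single-locus taken as at most 10 windows the difference was -12.1 points (exact sign-flip permutation p = 0.00439). With fragments counted once in each factor class it was -33.0 points (exact sign-flip permutation p = 0.000488). The trait was not its alone. Of the miRNA entries listed next most often, miR-145-5p had 17% single-locus of 100 interactions, and the 2 entries of miR-432-5p had 8.89% of 45 and 0% of 43, against 23.5% of 702 for miR-4331-5p. Single-locus interactions of miR-4331-5p also paired more closely than the pool, with a mean best score of 3.55 ± 0.356 against 4.06 ± 0.236 for those of other named miRNAs. The difference of -0.51 had the same sign in 11 of 12 libraries (exact sign-flip permutation p = 0.000977, adjusted p = 0.00326), and the exception was Pietrain high MM replicate 1, with 3.86 against 3.81. Single miRNAs paired as closely, such as miR-574-3p with a mean of 3.18 over 11 interactions, let-7i-5p with 3.29 over 12 and miR-378 with 3.40 over 20, all single-locus. Without Hampshire low MM replicate 1 the difference was -0.53 (exact sign-flip permutation p = 0.00195). In the Hampshire libraries with abundances of 2 and 3 under the name miR-4331-5p, its best score was the lower one where both were listed. The part of this in the difference was not tested.

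The design then asks whether targeting differed between high and low MM. The high-MM libraries held 31 and 42 interactions in Hampshire, 79 and 61 in Pietrain and 47 and 17 in Polish Large White, a mean of 46.2 ± 21.9 (SD, n = 6). The low-MM libraries held 53 and 68, 61 and 105, and 88 and 50, a mean of 70.8 ± 21.5 (n = 6). Every low-MM library exceeded every high-MM library in Hampshire and in Polish Large White, while the Pietrain groups overlapped. The difference of -24.7 interactions gave p = 0.0556 (exact permutation of MM labels within breeds, two-sided, adjusted p = 0.111; the smallest p the design allows is 0.00926). All named miRNAs moved with it, from 164 ± 69.6 interactions in low-MM to 98.8 ± 35.5 in high-MM libraries. Relative depth did too, at 23.0 ± 8.21 and 8.39 ± 14.0, and its part in the difference was not tested. With rows of the shallower class alone the difference was 1.58 interactions (exact permutation p = 0.907, 10 libraries). Pietrain low MM replicate 1 and Polish Large White low MM replicate 2 held no such rows. Hampshire low MM replicate 2 kept 1 interaction, so the 1.58 is not an estimate adjusted for depth. With fragments counted once in each factor class, an alternative added after the data had been seen, the means were 8.83 ± 5.71 and 20.7 ± 10.7 (exact permutation p = 0.037, not adjusted, n = 6 each). A fragment found in both classes of a library thus counted in each. Of the 5 libraries with both classes, only Pietrain high MM replicate 2 was high-MM, and the part of this in the difference was not tested.

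As a share of each library's named-miRNA interactions, miR-4331-5p took 45.8% ± 9.70 where MM was high and 45.2% ± 7.66 where it was low (SD over 6 libraries a group). The difference of 0.600 points was smaller than the spread between libraries (exact permutation p = 0.880) and changed sign under 6 alternatives. The single-locus share of its interactions was 19.1% ± 12.1 and 25.4% ± 11.8 (exact permutation p = 0.407). In bulk tissue, fewer cells of a type and less RNA per cell cannot be told apart.

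Between breeds, the share of named-miRNA interactions taken by miR-4331-5p was highest in Pietrain at 53.1% ± 8.61, against 43.0% ± 3.59 in Hampshire and 40.5% ± 7.01 in Polish Large White (SD, n = 4 a breed). The unadjusted exact permutation test over all partitions of the libraries gave p = 0.0377, and the adjusted p was 0.0944. The Pietrain values were 64.8%, 44.5%, 53.5% and 49.5%, and the lowest of them lay within the Hampshire range of 37.8% to 45.9%. Without the library at 64.8%, Pietrain high MM replicate 1, the unadjusted p was 0.157. Interactions per library averaged 48.5 ± 15.8, 76.5 ± 20.8 and 50.5 ± 29.1 in Hampshire, Pietrain and Polish Large White (exact permutation p = 0.209). Single-locus shares averaged 17.5% ± 9.97, 25.7% ± 9.08 and 23.5% ± 16.8 (exact permutation p = 0.649).

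No single position passed a test of presence. Of 204 positions of named miRNAs listed in 2 to 10 libraries, 96 belonged to miR-4331-5p. In the MM comparison 0 were called at an adjusted p under 0.05 (0% of all tested), and 0 had an unadjusted p under 0.05. In the breed comparison 0 were called (0%), while 2 of 204 (0.98%) had an unadjusted p under 0.05, of which 0 belonged to miR-4331-5p. Even a position split completely by MM could not have been called unless 38 such positions occurred together. The smallest unadjusted MM p among these positions was 0.0833, for PM20D2 (1 high-MM and 5 low-MM libraries). Among the other positions with a surplus in low-MM libraries were MYLK2 (2 against 5), CCDC12 (1 against 4), ITPRIPL2 (1 against 4), and ZNF211 and the single-locus ATP2A1 position (0 against 3 each). The ITPRIPL2 position carried the gene's name in only 3 of its libraries. Among positions with a high-MM surplus, B2M, which encodes beta-2 microglobulin, had 3 libraries against 1, and LAMA2 had 2 against 0. The smallest breed p, 0.0545, belonged to PTP4A2, a tyrosine phosphatase gene, and a chromosome 3 position (34538835) without a gene, both listed in 3 Pietrain libraries and nowhere else. Both rested on fragments of 1401 to 1947 windows that were listed at 20 to 39 positions.

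The listed genes were spread over many functions. Rows of miR-4331-5p named 408 genes, 28.8% of the 1416 named in the tables for any small RNA, and 323 of them (79.2%) were named for no other small RNA. The like share was not computed for other small RNAs, so the 323 do not mark a set particular to miR-4331-5p. Of the 408, 103 came from single-locus positions only, 297 from repeated positions only and 8 from both. Most, 321, were listed in 1 library. Of 295 genes on 13 muscle-related lists, 90 were listed for some small RNA and 18 for miR-4331-5p. Of the fast-fibre contractile genes listed, 3 of 9 had a position (TPM1, ATP2A1 and MYLK2), and of the sarcomere and Z-disc genes 4 of 12. Those were NEB, nebulin, and MYOZ1, a calcineurin-binding Z-disc protein, in repeated sequence, TMOD4, a thin-filament capping protein whose position also named 3 neighbouring genes, likewise repeated, and MYOM2, an M-band protein, single-locus with 2 windows and category 0 in Polish Large White low MM replicate 2 at a position that also named NEIL3. Oxidative metabolism gave 3 of 10, all repeated: UQCRC2 of respiratory complex III, in 5 libraries, and ACADM and IDH3A of fatty acid oxidation and the citric acid cycle, in 1 each. The UQCRC2 position also named PDZD9. Myogenic regulators gave 2 of 4, TEAD1 and MEF2B, both single-locus with 10 windows in 1 library each, TEAD1 in category 1 and MEF2B in category 3. INSR, the insulin receptor, was single-locus in 1 library with 10 windows, and SMAD4, a mediator of TGF-beta signalling, was repeated in 1. In contrast, 0 of 13 listed genes of glycolysis and glycogen, 0 of 7 of protein breakdown, 0 of 7 of translation and 0 of 6 mitochondrially encoded genes had a position. The other lists gave FKBP5 as 1 of 5 genes of steroid and stress response, LAMA2 as 1 of 4 of extracellular matrix, ATP2A1 as 1 of 5 of calcium handling, and PPP1R2 and PTP4A2 as 2 of 3 of phosphatase and kinase regulation. The lists were short, and no list was tested.

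The strand of the named gene was not settled by the tables. Each position was listed on both strands, and window positions ran along strand 1. Start plus cleavage position coincided for 425 of 1159 windows (36.7%), and start minus cleavage position for 0. A gene was named on strand 1 only at 191 positions, on strand -1 only at 153, on both at 35 and on neither at 130. Among single-locus positions the numbers were 52, 34, 9 and 30. HBEGF, CCDC12, LAMA2 and PPP1R2 were named on strand -1, and PM20D2, ATP2A1, MYLK2, DSP and UNC45A on strand 1. That a listed transcript was itself cut is thus not established by its name. By chromosome, 56 positions were on chromosome 1 and 53 on chromosome 13, 8 were on unplaced scaffolds and 0 on the mitochondrial genome. RB1 and CDCA7, which have been described as targets of this miRNA in virus-infected pig cells, were not listed for any small RNA.

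In the 5 libraries with both classes of normalization factor, listings were compared between the classes. Whether the classes were separate measurements is not given. Of their repeated interactions 127 of 276 (46.0%) were listed in both classes, and of their single-locus interactions 14 of 99 (14.1%). Many repeated positions shared a fragment, so the 127 are not independent listings. The 2 shares therefore do not rank the kinds by repeatability. Among repeated interactions the share was 43 of 53 in Polish Large White low MM replicate 1 and 0 of 61 in Hampshire low MM replicate 2. Window counts for the same position differed little between classes, with a median ratio of 0.997 over 56 positions in Pietrain low MM replicate 2 and 0.997 over 51 in Polish Large White low MM replicate 1. A fragment found in both classes would match about the same windows in each, so these ratios do not measure repeatability. Positions that share a fragment are not independent here either. Polish Large White low MM replicate 1 had the most single-locus interactions in both classes, 8 of 35, and Hampshire low MM replicate 1 had 0 of 7. The repeated interactions of Hampshire low MM replicate 2 were all of the deeper class, 61 of 61.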

How the data were processed

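The labels' protocols state that total RNA of loin was used for PARE and that RNA integrity numbers exceeded 7. The submitters' processing notes name CASAVA 1.8.2 and FastQC. For the small RNA input, row filter, aligner, annotation and genome build, the sources used here give nothing. The design text of the series mentions chickens, but all samples are labelled pig. Per the file headers the deposited tables are PAREsnip output. The category, alignment score, small RNA abundance and fragment abundance are deposited scores, and fragment abundance was not used as reads. The deposited p-value was rounded to 2 decimals by the authors. Weighted and normalized abundance, as deposited, are signal on a scale the authors do not give. Deposited positions and names are other, non-numeric or coordinate columns. A total of 10 weighted values, none of miR-4331-5p, look like spreadsheet dates and were rebuilt from the normalized value and the library's factor.

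All computing used numpy 2.4.6 and pandas 2.3.3 in Python 3.11.15. Rows with a factor under 0.15 formed the deeper class. A library was the unit of every test: exact permutation of MM labels within breeds (216 relabellings), all partitions of the libraries between breeds, and 4096 sign flips within libraries, all with Benjamini-Hochberg adjustment over 10 tests or, for presence, over 204 positions. Presence calls were tested on simulated data. Each permutation p-value is the share of rearrangements of these libraries with a statistic at least as large as the observed one. It describes these samples only. Genes were named by rule: positions in 6 or more libraries, the 12 single-locus positions in the most libraries, single-locus positions with category 0 or 1 in 2 or more libraries, the 5 most unevenly listed toward either MM group, the 3 with the smallest breed p, the 8 with the best alignment score, and up to 4 positions for each muscle list. Genes with 1 window, near the split or crossing it, and unshared positions were named after their values had been seen. The members and lists were chosen with earlier results of these data known. Of the 408 genes, 351 matched the reference table of names. Replicate numbers did not pair the libraries (correlations of same-numbered libraries -0.0571 to 0.0587).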

Additional observations from a re-analysis of the deposited data

Results flagged for a closer look

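Among the 6 high-MM libraries, Pietrain high MM replicate 1 stood apart in the share of named-miRNA interactions taken by miR-4331-5p, at 64.8% against 37.8% to 44.7% in the other 5. Chance flags about 1 in 20 such groups, and 15 groups were examined.

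The single-locus share of interactions moved with MM in opposite directions in 2 breeds. It was 11.5 percentage points higher in high-MM than in low-MM libraries in Hampshire, and the difference was -28.8 points in Polish Large White, with no overlap between the groups in either. The difference between breeds was not tested.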

How the results depend on the processing

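Of the 12 results examined, the category difference and both contrasts with other named miRNAs kept their direction and their side of the threshold under every alternative run. The MM difference in interactions (-24.7) became 1.58 with shallower rows only, -35.2 (exact permutation p = 0.00926) with categories 0 to 2 and -11.8 (p = 0.037) with fragments counted once. Leaving out each library gave -31.2 to -17.8, with an unadjusted p under 0.05 without Hampshire low MM replicate 1, Pietrain high MM replicate 1 or 2, or Polish Large White low MM replicate 2. The MM difference in share (0.600 points) was -3.81 with categories 0 to 2, -1.48 with tab names, -0.661 without Pietrain and -1.25 with fragments counted once, and -3.19 to 2.26 when a library was left out, below 0 without Pietrain high MM replicate 1 or Polish Large White low MM replicate 1. The MM difference in single-locus share (-6.25 points) was 14.9 with categories 0 to 2 and 0.895 with a split at 140 windows. Breed ranges in share (12.6 points) lost an unadjusted p under 0.05 with deposited p of at most 0.02 (6.55), shallower rows (26.7), categories 0 to 2 (18.7), rows counted (2.64), single-locus interactions only (6.37) and fragments counted once (3.75). Leaving out a library gave 8.71 to 15.5, and p stayed under 0.05 in 3 of 12 cases, those without Hampshire high MM replicate 1, Pietrain high MM replicate 2 or Polish Large White low MM replicate 2. The breed range in interactions (28.0) was 18.5 to 38.5, with exact permutation p = 0.0457 without Polish Large White low MM replicate 1. The counts of called positions were 0 in every alternative run, which in this design says nothing about stability. The causes were not tested. With a replicate block pairing same-numbered libraries, the MM difference in interactions gave exact sign-flip permutation p = 0.0625, that in share p = 0.844 and that in single-locus share p = 0.469, with no call changed. Restricting to cells naming no other small RNA was not run, since all rows carry 1 identical cell. Counting of fragments, where once means once in each factor class of a library, was added after the data had been seen. Unknown depth and a list of retained rows limit all statements on presence.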
